A study of Vitis vinifera with 171 samples.

Results

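WRKY, NAC and bHLH proteins are among the largest plant families of transcription factors, the proteins that bind regulatory DNA and set how much of a gene is transcribed. WRKY proteins carry a zinc-binding DNA-binding domain and are known above all from pathogen defence and leaf senescence. NAC proteins share an N-terminal DNA-binding domain and act in senescence, stress responses and, in several fleshy fruits, ripening. bHLH proteins bind DNA as dimers through a basic helix-loop-helix and regulate, among other things, flavonoid synthesis, iron uptake and the development of floral organs.

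The genes described here were those in the readable parts of the study's lists of expressed or differentially expressed grapevine genes whose annotation names the WRKY, NAC or bHLH family. There were 14 such genes, against 29543 probe sets on the whole array: 6 WRKY, 4 NAC and 4 bHLH genes. Each gene was found on the array by matching the sample values in the lists to the signal of neighbouring probes. This succeeded for 13 of the 14. The remaining gene, a bHLH gene (VIT_18s0001g10300), was listed only with averages by stage, which fitted more than 1 probe set, and it was not analysed here. A further 4 genes, assigned to a bHLH network without naming the family in their annotation, were matched and are given apart. Names follow the annotation, mostly after Arabidopsis genes. The 2 genes annotated as WRKY53 are called WRKY53 (02s), VIT_02s0025g01280, and WRKY53 (15s), VIT_15s0046g01140, and the bHLH gene without a name of its own is called bHLH (03s), VIT_03s0038g01790. Coordinates and sequences of the genes were not used here. Several of the longer lists could be read only in part, so further listed genes of these families may be missing.

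The samples were berry pericarp (entire berries without seeds) of Vitis vinifera cultivar Corvina, clone 48, a red wine grape, grown in 11 commercial vineyards of the Bardolino, Valpolicella and Soave areas near Verona and abbreviated by letters (AM, BA, BM, CC, CS, FA, GIV, MN, PM, PSP and VM). Berries were taken at veraison (the onset of ripening, when berries soften and colour), at mid-ripening and at harvest, in all 11 vineyards in 2008 and in AM, CS, MN and PSP also in 2006 and 2007. Every vineyard, year and stage had 3 biological replicates on separate arrays, 171 arrays in 57 groups. All vines were of 1 clone and no treatment was applied, so that year, vineyard and stage were the compared conditions, and weather, site and cultivation differ together between them.

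Levels are given as log2 intensity, the log2 of the mean of the 4 probes of a gene after the authors' normalisation, so that a difference of 1 is a doubling. Each vineyard entered the comparisons as the mean of its 3 arrays, and differences come from limma fits over all 29543 probe sets, with Benjamini-Hochberg adjustment over all of them and an adjusted p under 0.05 taken as the threshold. Where a call is said to be lost, the vineyards left out are named. Some of these calls were also lost without a replicate or with another processing, which is not given each time. The 95th percentile of the random control probes, taken as background, lay between 5.17 and 9.42 over the arrays. Its median by year and stage was lowest at veraison of 2006, at 6.27, and highest at harvest of 2008, at 7.07. Pericarp was extracted as bulk tissue, so fewer cells of a type and less RNA per cell cannot be told apart. As a check of the stages, VvMYBA1, the regulator of anthocyanin synthesis in skin, and the ripening-induced gene grip22 were followed. From veraison to harvest VvMYBA1 changed by 0.73 in 2006, 2.54 in 2007 and 0.31 in 2008. The changes of grip22 were 0.25, 1.68 and −0.08 in the same order. Only VvMYBA1 in 2007 passed the threshold, so VvMYBA1 and grip22 did not separate these stages in 2006 or 2008. At veraison both were lower in 2007 than in 2008, VvMYBA1 by −2.24 (SE 0.63, adjusted p = 0.00862) and grip22 by −2.79 (SE 0.77, adjusted p = 0.00718), and the 2006 berries differed from those of 2008 by −0.22 (SE 0.63) and −0.17 (SE 0.77), neither past the threshold. Of 4 alpha-expansins, proteins of cell wall loosening, 2 passed the threshold between 2007 and 2008, with a median of −2.02 over the 4, and of 5 photosystem and chlorophyll-binding genes 4 did, with a median of 0.85 over the 5. From veraison to harvest, 2, 2 and 3 of the alpha-expansins passed it in 2006, 2007 and 2008. Of the photosystem and chlorophyll-binding genes, 1, 1 and 2 did.

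Of the 13 genes, 8 were above background on every array. WRKY53 (15s) was above it on 168 of 171 arrays, WRKY53 (02s) on 158 and WRKY21 on 156. NAC47 and BHLH038 were above it on 3 and 5 arrays and are treated as not well above background. That leaves 11 measured genes, and their levels span a wide range, from a mean of 8.54 for WRKY21 to 13.85 for NAC19 (VIT_19s0014g03290). These are probe signals, which do not rank genes against each other.

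**Figure D1:**
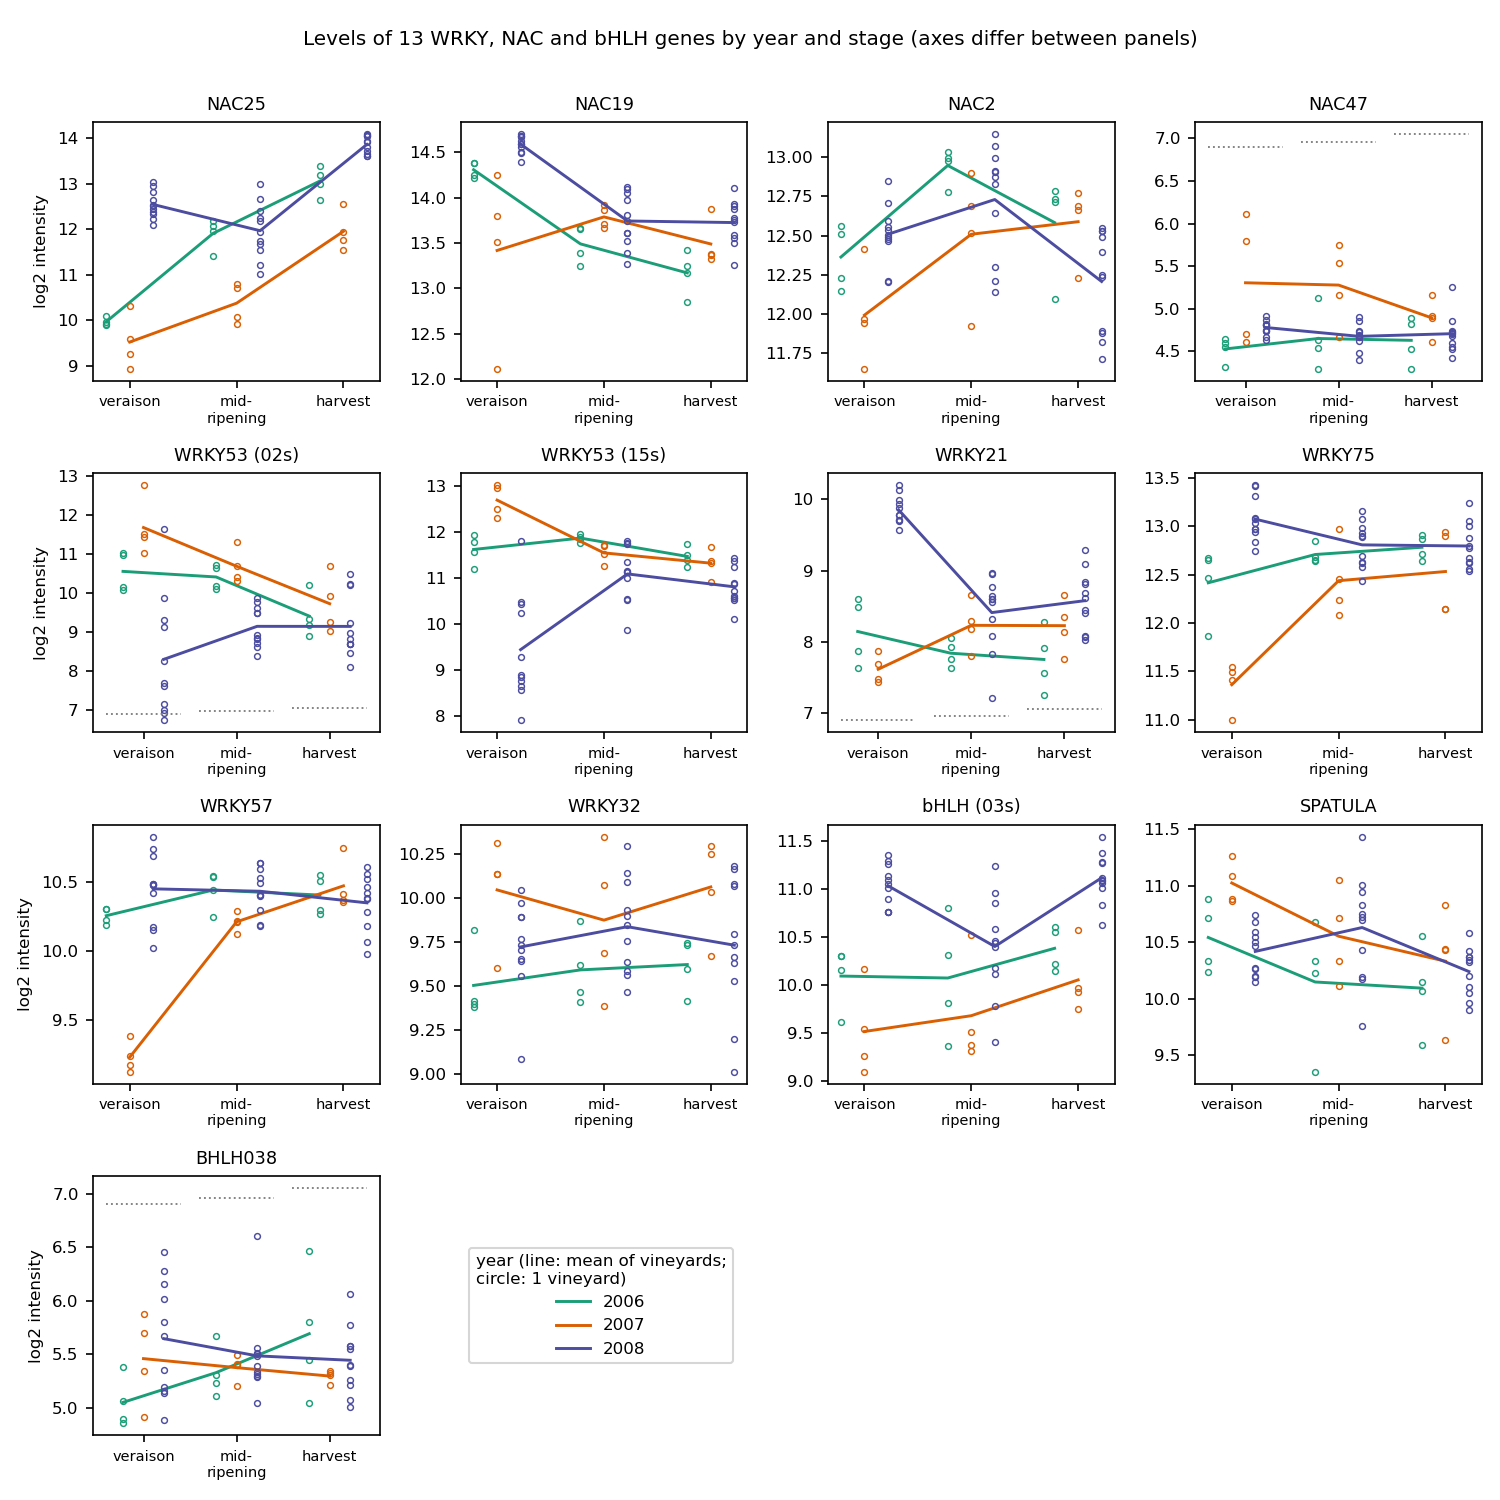
Log2 intensity (vertical axis) of the 13 matched genes at veraison, mid-ripening and harvest (horizontal axis), a panel for each gene. A circle is the mean of 3 arrays of 1 vineyard, and a line joins the means over vineyards in 2006 (4 vineyards), 2007 (4) and 2008 (11). The dotted grey line, drawn for 4 low genes, is the median background level. The years lie farthest apart at veraison for NAC25, WRKY21, both WRKY53 genes and WRKY75. NAC47 and BHLH038 were above background on only 3 and 5 of 171 arrays.

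The first comparison asked how the genes differed between vintages at veraison. Between 2007 and 2008 in the 4 vineyards with all years, 9 of the 13 genes passed the threshold, 3 higher and 6 lower in 2007, where 29.1% of all probe sets passed it, 14.5% higher and 14.6% lower. The study had listed 7 of these genes because they differed between years at veraison on these same arrays (NAC25, NAC19, WRKY21, WRKY75, both WRKY53 genes and bHLH (03s)), so their differences at this stage describe the selection and are not independent evidence. The other 2 of the 9 genes, WRKY57 and SPATULA, came from lists of training system and of production area in 2008.

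The largest differences were those of the WRKY53 genes, whose Arabidopsis namesake promotes leaf senescence and takes part in defence. At veraison in 2007, WRKY53 (02s) was at 11.43 in AM, 11.02 in CS, 12.77 in MN and 11.50 in PSP. In 2008 it was at 8.25, 7.62, 9.29 and 6.99 in the same order, and in 2006 at 10.08, 10.97, 11.02 and 10.14. Each vineyard was lowest in 2008, and neither 2006 nor 2007 overlapped with 2008. WRKY53 (02s) was 12.5-fold higher in 2007 than in 2008 (log2 difference 3.64, SE 0.41, adjusted p = 3.48e-07) and 5.71-fold higher in 2006 than in 2008 (2.51, SE 0.41, adjusted p = 0.000117). Low values of 2008, such as 6.99 in PSP, lay near background, whose median at veraison of 2008 was 6.91. Both folds therefore rest partly on background signal.

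WRKY53 (15s) stood at 12.31 in AM, 12.49 in CS, 12.96 in MN and 13.02 in PSP in 2007, and at 11.19, 11.79, 11.94 and 11.56 in 2006. In 2008 the values were 10.47, 8.66, 9.28 and 7.90. The 3 years did not overlap, with 2007 highest and 2008 lowest, and the spread between vineyards was widest in 2008. The differences were 3.62 between 2007 and 2008 (SE 0.36, adjusted p = 5.41e-08), 2.54 between 2006 and 2008 (SE 0.36, adjusted p = 1.89e-05) and 1.07 between 2007 and 2006 (SE 0.36, adjusted p = 0.0395, a call lost without CS, MN or PSP). Over the 57 group means the 2 WRKY53 genes had the closest profiles of any pair of the 13 (Pearson r = 0.87), and over the 38 means of mid-ripening and harvest r was 0.76. Group means of a vineyard share its site, and all arrays share their normalisation, so r is given as a description.

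Most of the other genes listed for this stage moved the opposite way. NAC25 (VIT_00s0375g00040) was at 9.59 in AM, 8.93 in CS, 10.32 in MN and 9.26 in PSP in 2007, and at 9.96, 9.90, 9.91 and 10.10 in 2006. In 2008 it was at 12.39, 12.53, 12.33 and 13.05. The 2 earlier years overlapped with each other, and every value of 2008 was above them. NAC25 was 8.28-fold lower in 2007 than in 2008 (log2 difference −3.05, SE 0.27, adjusted p = 1.67e-08) and 6.08-fold lower in 2006 (−2.60, SE 0.27, adjusted p = 4.66e-07).

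WRKY21 (VIT_00s2547g00010) followed the same order. It ranged from 7.44 to 7.87 in 2007, where 8 of 12 arrays were above background, from 7.63 to 8.60 in 2006 and from 9.70 to 10.14 in 2008. The 2008 values again lay above all others, by 2.21 over 2007 (SE 0.23, adjusted p = 1.72e-07) and by 1.68 over 2006 (SE 0.23, adjusted p = 1.86e-05).

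In WRKY75 and bHLH (03s) the years were graded, with 2006 between the others. WRKY75 (VIT_17s0000g01280), whose Arabidopsis namesake acts in phosphate starvation and senescence, ranged from 10.99 to 11.55 in 2007, from 11.87 to 12.67 in 2006 and from 12.75 to 13.31 in 2008, without overlap. Its differences were −1.68 between 2007 and 2008 (SE 0.19, adjusted p = 4.27e-07), −0.63 between 2006 and 2008 (SE 0.19, adjusted p = 0.031, lost without AM, CS or PSP) and −1.05 between 2007 and 2006 (SE 0.19, adjusted p = 0.00105). For bHLH (03s) the 2007 berries were lower than those of 2008 by −1.53 (SE 0.20, adjusted p = 3.05e-06) and the 2006 berries by −0.96 (SE 0.20, adjusted p = 0.00187), while 2007 and 2006 differed by −0.58 (SE 0.20, adjusted p = 0.0505).

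NAC19 is named after an Arabidopsis gene of abscisic acid and jasmonate responses. In 2007 it was at 14.25 in AM, 13.80 in CS, 12.11 in MN and 13.52 in PSP, against 14.21 to 14.39 in 2006 and 14.50 to 14.70 in 2008. All 4 values of 2007 were below those of 2008, and MN was far below the rest. The difference between 2007 and 2008 was −1.18 (SE 0.26, adjusted p = 0.00129), and that between 2007 and 2006, −0.89 (SE 0.26, adjusted p = 0.0219), missed the threshold without MN, without CS and without PSP (adjusted p from 0.0896 to 0.107).

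WRKY57 (VIT_01s0011g00720), which in Arabidopsis acts in drought tolerance and jasmonate-induced senescence, was not listed for year differences at veraison. The study's list of year differences later in ripening could be read only in part. At veraison WRKY57 was at 9.39 in AM, 9.17 in CS, 9.12 in MN and 9.24 in PSP in 2007. It was at 10.30, 10.23, 10.19 and 10.31 in 2006, and at 10.83, 10.49, 10.17 and 10.15 in 2008. The 2007 berries were lower than those of either other year in every vineyard, without overlap, and 2006 and 2008 overlapped. The differences were −1.18 from 2008 (SE 0.14, adjusted p = 4.27e-07) and −1.03 from 2006 (SE 0.14, adjusted p = 6.24e-05). In PSP, the only vineyard whose veraison berries of 2006 and 2007 shared a slide, the within-slide difference was −1.07.

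SPATULA (VIT_07s0031g00450), a regulator of carpel and fruit development in Arabidopsis, was higher in 2007 than in 2008 by 0.54 (SE 0.20, adjusted p = 0.0483), with 10.86 to 11.27 in 2007 and 10.26 to 10.74 in 2008. The groups did not overlap, but the call did not survive the loss of any 1 of the 4 vineyards. NAC2 (VIT_18s0001g02300) differed by −0.47 (SE 0.18, adjusted p = 0.0562) and WRKY32 (VIT_04s0008g06600) by 0.41 (SE 0.20, adjusted p = 0.135). For NAC47 and BHLH038 no fold is given. NAC47 (VIT_06s0004g02340), named after an Arabidopsis gene of the response to waterlogging, passed the threshold between 2007 and 2006 (adjusted p = 0.033), with 3 of 12 arrays above background in 2007 and 0 of 12 in 2006. This call was lost in 5 alternative fits, among them median polish and those without CS or PSP.

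**Figure D2:**
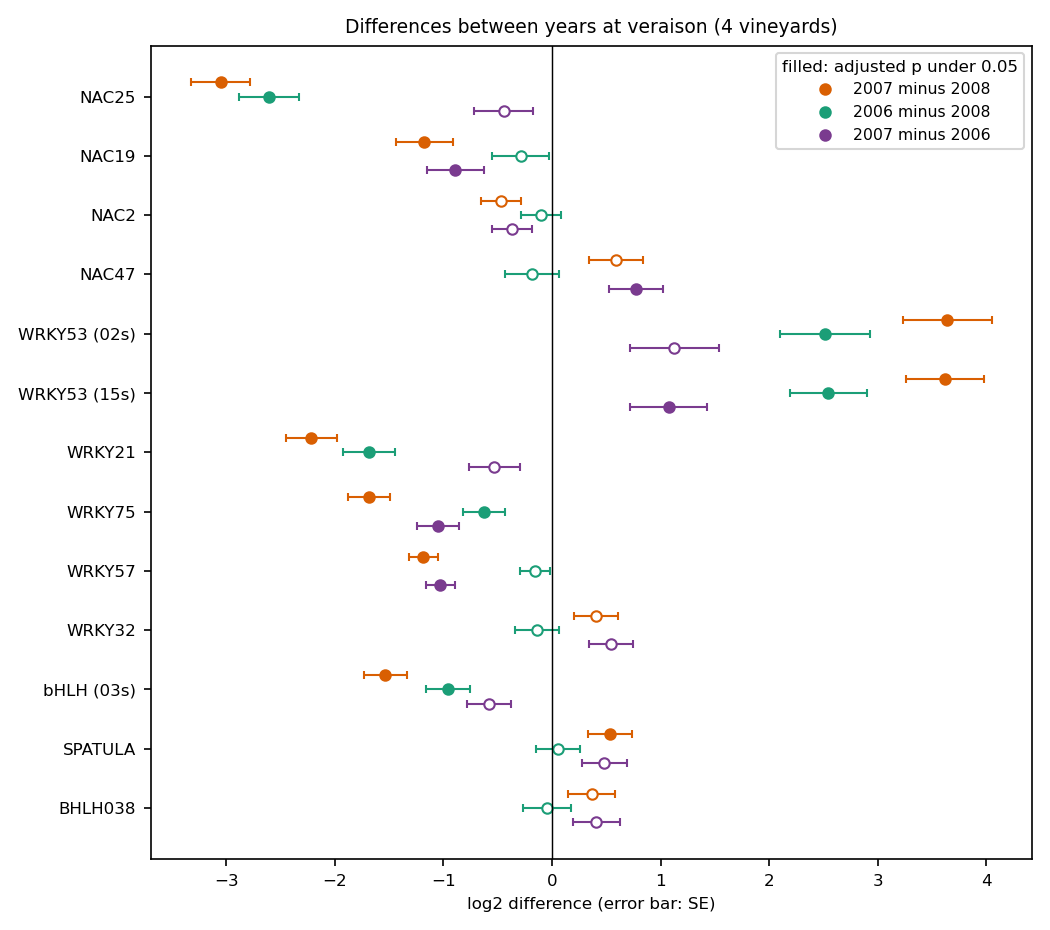
Log2 differences between years at veraison (horizontal axis) for the 13 genes (vertical axis), from the means of AM, CS, MN and PSP, with the standard error as a bar. Filled points have an adjusted p under 0.05. Both WRKY53 genes lie between 2.51 and 3.64 for 2006 and 2007 against 2008, and NAC25, WRKY21, WRKY75 and bHLH (03s) lie on the negative side.

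Over all years and genes, 6 of 13 passed the threshold between 2006 and 2008 (2 higher and 4 lower in 2006, against 12.0% of probe sets, 5.52% higher and 6.43% lower) and 5 of 13 between 2007 and 2006 (2 higher and 3 lower in 2007, against 16.0%, 7.22% higher and 8.81% lower). The median difference of the 13 genes between 2007 and 2008 was −0.47, and that of all probe sets 0.09. The 3 differences at veraison share their samples pairwise. Year and slide could not be told apart between 2007 and 2008 or between 2006 and 2008. No slide held veraison berries of these vineyards from both 2008 and an earlier year. Between 2007 and 2006 only PSP had a shared slide. VvMYBA1, grip22 and 2 of the 4 alpha-expansins were lower in 2007 than in 2008 in these same berries, and the part of ripening stage in the differences was not tested. Between 2006 and 2008 none of these markers passed the threshold with limma, with −0.22 for VvMYBA1, −0.17 for grip22, −1.05 to 0.61 for the alpha-expansins and 0.16 to 1.04 for the photosystem and chlorophyll-binding genes. VvMYBA1 and grip22 did not separate veraison from harvest in these years, so they cannot show equal ripeness. In the study's measurements at veraison, total anthocyanins were lower in 2006 than in 2008 in each of these vineyards. Total acidity was lower in 2006 in AM, CS and PSP and higher in MN.

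Later in ripening, 2007 was compared with the mean of 2006 and 2008. At mid-ripening, 1 of 13 genes passed the threshold, lower in 2007, where 9.64% of probe sets did, 4.22% higher and 5.42% lower. This was NAC25, at 10.72 in AM, 10.07 in CS, 9.92 in MN and 10.79 in PSP in 2007, against 11.02 to 12.41 in the other years. All 4 values of 2007 were below those of 2006 and 2008, by 1.48 on average (SE 0.24, adjusted p = 0.000728). At harvest it stayed lower, with 11.56 to 12.56 in 2007 and 12.65 to 14.10 in the other years, again without overlap (−1.51, SE 0.24, adjusted p = 0.000352).

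At harvest, bHLH (03s) was the only other gene past the threshold (2 of 13, both lower in 2007, against 10.3% of probe sets, 5.63% higher and 4.68% lower), with 9.75 to 10.57 in 2007 and a difference of −0.65 (SE 0.18, adjusted p = 0.018). The call was lost without AM, CS or MN. NAC25 and bHLH (03s) had profiles with r = 0.76 over the 57 means and 0.83 over the 38 later ones, the closest pair after the WRKY53 genes over all 57. For the WRKY53 genes, harvest levels in 2007 differed from the other years by 0.37 (SE 0.36, adjusted p = 0.539) for 02s and by 0.17 (SE 0.31, adjusted p = 0.757) for 15s. WRKY57 and WRKY75 differed by 0.12 (SE 0.12, adjusted p = 0.54) and −0.22 (SE 0.17, adjusted p = 0.406).

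The next question was how each gene changed during ripening, and whether the course was the same in each year. In 2008, over 11 vineyards, 7 of 13 genes passed the threshold from veraison to harvest, 3 higher and 4 lower at harvest, where 57.3% of all probe sets did (29.1% higher and 28.1% lower). In 2006, over 4 vineyards, 4 of 13 did (2 higher, 2 lower), against 26.4% (12.6% and 13.8%). In 2007 it was 9 of 13 (6 higher, 3 lower), against 30.0% (15.4% and 14.5%). The share among these genes was thus near that of the array in 2006 and 2008 and above it in 2007, and 7 of the 13 had been listed for a level at veraison that enters these changes. Between veraison and mid-ripening, 7 of 13 passed it in 2008 (2 higher, 5 lower, against 47.0% of probe sets, 23.4% and 23.5%), 3 in 2006 (2 higher, 1 lower, against 14.8%, 6.38% and 8.46%) and 4 in 2007 (3 higher, 1 lower, against 12.4%, 5.85% and 6.55%). Between mid-ripening and harvest, 4 did in 2008 (2 higher, 2 lower, against 36.8%, 18.7% and 18.1%) and 1 in 2007 (higher, against 3.62%, 1.69% and 1.93%). In 2006, 0 of 13 did with limma (against 0.220%, 0.139% and 0.0812%), and 2 of 13 had an unadjusted p under 0.05.

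NAC25 rose to harvest in all years. In 2008 it ranged over the 11 vineyards from 12.10 to 13.05 at veraison (median 12.51), from 11.02 to 12.99 at mid-ripening (median 11.93) and from 13.61 to 14.10 at harvest (median 13.93). Harvest values did not overlap with those of either earlier stage. It fell by 0.58 from veraison to mid-ripening (SE 0.15, adjusted p = 0.00346, in 8 of 11 vineyards) and then rose by 1.90 (SE 0.15, adjusted p = 2.16e-09, in 11 of 11). From veraison to harvest the rise was 3.09 in 2006 (SE 0.27, adjusted p = 3.88e-09), 2.43 in 2007 (SE 0.27, adjusted p = 1.7e-07) and 1.32 in 2008 (SE 0.15, adjusted p = 1.08e-07). In 2006 and 2007 the mid-ripening berries were higher than those at veraison, by 1.94 in 4 of 4 vineyards (SE 0.27, adjusted p = 1.48e-05) and by 0.85 in 3 of 4 (SE 0.27, adjusted p = 0.0387). Within slides, the rise to harvest in 2008 was 1.42 ± 0.28 (SD, n = 8 vineyard and slide pairs).

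NAC19 fell in 2 of the 3 years. In 2008 it was between 14.40 and 14.70 at veraison (median 14.59) and between 13.26 and 14.10 at harvest (median 13.76), with no overlap and a fall in all 11 vineyards (−0.86, SE 0.10, adjusted p = 1.77e-07). In 2006 it fell by 1.14 (SE 0.26, adjusted p = 0.00159), in all 4 vineyards. In 2007 the change was 0.07 (SE 0.26, adjusted p = 0.864), and AM, CS and PSP fell while MN, low at veraison, was higher at harvest by 1.77.

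NAC2 fell late in ripening in 2008. It went from a median of 12.50 at veraison to 12.88 at mid-ripening and 12.25 at harvest, with overlap between all stages. The first step, 0.22, did not pass the threshold (SE 0.09, adjusted p = 0.0582). The fall after mid-ripening was 0.52 (SE 0.09, adjusted p = 0.000116) and was seen in 11 of 11 vineyards. Over the whole of ripening it fell by 0.30 in 2008 (SE 0.09, adjusted p = 0.00901) and rose by 0.60 in 2007 (SE 0.18, adjusted p = 0.0152, in 3 of 4 vineyards, lost without CS, MN or PSP), and in 2006 the difference was 0.22 (SE 0.18, adjusted p = 0.429).

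The WRKY53 genes rose in 2008 and fell in 2007. WRKY53 (15s) in 2008 ran from 7.90 to 11.82 at veraison (median 8.88) and from 10.11 to 11.45 at harvest (median 10.71). The stages overlapped because of a few high vineyards at veraison, and 10 of 11 vineyards rose. The rise was 1.37 (SE 0.27, adjusted p = 0.000122) and lay between veraison and mid-ripening (1.65, SE 0.27, adjusted p = 2.32e-05). In 2007 the gene fell by 1.37 (SE 0.36, adjusted p = 0.00427, and 0.0783 without MN), in 4 of 4 vineyards and without overlap, and in 2006 the difference was −0.15 (SE 0.36, adjusted p = 0.808).

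WRKY53 (02s) behaved similarly in 2007, with a fall of 1.96 (SE 0.41, adjusted p = 0.000608, in 4 of 4 vineyards). In 2006 it fell by 1.15 (SE 0.41, adjusted p = 0.0384), and this call was lost without AM, CS or PSP, without replicate B or C and without the vineyard term. In 2008 it rose by 0.84 (SE 0.35, adjusted p = 0.0431), in 9 of 11 vineyards, and this call was lost without any 1 of AM, CC, CS, FA, MN, PM, PSP and VM. The highest adjusted p over its alternatives was 0.111. In 2008 it was above background on 24 of 33 veraison arrays and on none of the 3 of CC.

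WRKY75 and WRKY57 rose in 2007. WRKY75 went from 11.50 to 12.14 in AM, from 11.41 to 12.14 in CS, from 10.99 to 12.94 in MN and from 11.55 to 12.90 in PSP between veraison and harvest of 2007, a rise of 1.17 without overlap (SE 0.19, adjusted p = 3.89e-05). In 2008 it fell by 0.28 (SE 0.08, adjusted p = 0.00329, in 10 of 11 vineyards, and on 3 of its 4 probes). WRKY57 rose in 2007 by 1.25 (SE 0.14, adjusted p = 1.04e-07), most of it, 0.98 (SE 0.14, adjusted p = 2.31e-05), before mid-ripening. Its changes in 2006 and 2008 were 0.15 (SE 0.14, adjusted p = 0.471) and −0.10 (SE 0.07, adjusted p = 0.213).

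WRKY21 fell in 2008, from 9.57 to 10.20 at veraison (median 9.78) to 8.03 to 9.29 at harvest (median 8.62), without overlap (−1.27, SE 0.16, adjusted p = 3.95e-07, in 11 of 11 vineyards). The fall came before mid-ripening (−1.44, SE 0.16, adjusted p = 1.65e-07). In 2007 it rose by 0.61 (SE 0.23, adjusted p = 0.0494), a call that was lost without any 1 of the 4 vineyards, and in 2006 the difference was −0.39 (SE 0.23, adjusted p = 0.241). WRKY32 showed no change past the threshold in any year, with differences from veraison to harvest of 0.12 (SE 0.20) in 2006, 0.02 (SE 0.20) in 2007 and 0.01 (SE 0.09) in 2008.

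Among the bHLH genes, bHLH (03s) dipped at mid-ripening in 2008. It went from a median of 11.05 at veraison to 10.44 at mid-ripening and 11.09 at harvest. It fell in 11 of 11 vineyards (−0.63, SE 0.12, adjusted p = 0.000113) and then rose in 10 of 11 (0.71, SE 0.12, adjusted p = 3.56e-05), and harvest differed from veraison by 0.08 (SE 0.12), short of the threshold. In 2007 it rose from veraison to harvest by 0.54 (SE 0.20, adjusted p = 0.0448), in 4 of 4 vineyards, a call lost without AM, CS or MN, and in 2006 the difference was 0.29 (SE 0.20, adjusted p = 0.327). SPATULA was lower at harvest than at veraison in 2007 by −0.69 (SE 0.20, adjusted p = 0.0108, in 4 of 4 vineyards, lost without AM). In 2008 it fell from mid-ripening to harvest by 0.39 (SE 0.08, adjusted p = 0.000663, in 10 of 11 vineyards). BHLH038 (VIT_13s0073g00400), known in Arabidopsis from the response to iron deficiency, passed the threshold from veraison to harvest in 2006 (adjusted p = 0.0299) with 1 of 12 harvest arrays and 0 of 12 veraison arrays above background. This call was lost in 7 alternative fits, among them median polish and those without AM, MN or PSP. The study had listed BHLH038 for its change from veraison in 2006 and 2008.

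**Figure D3:**
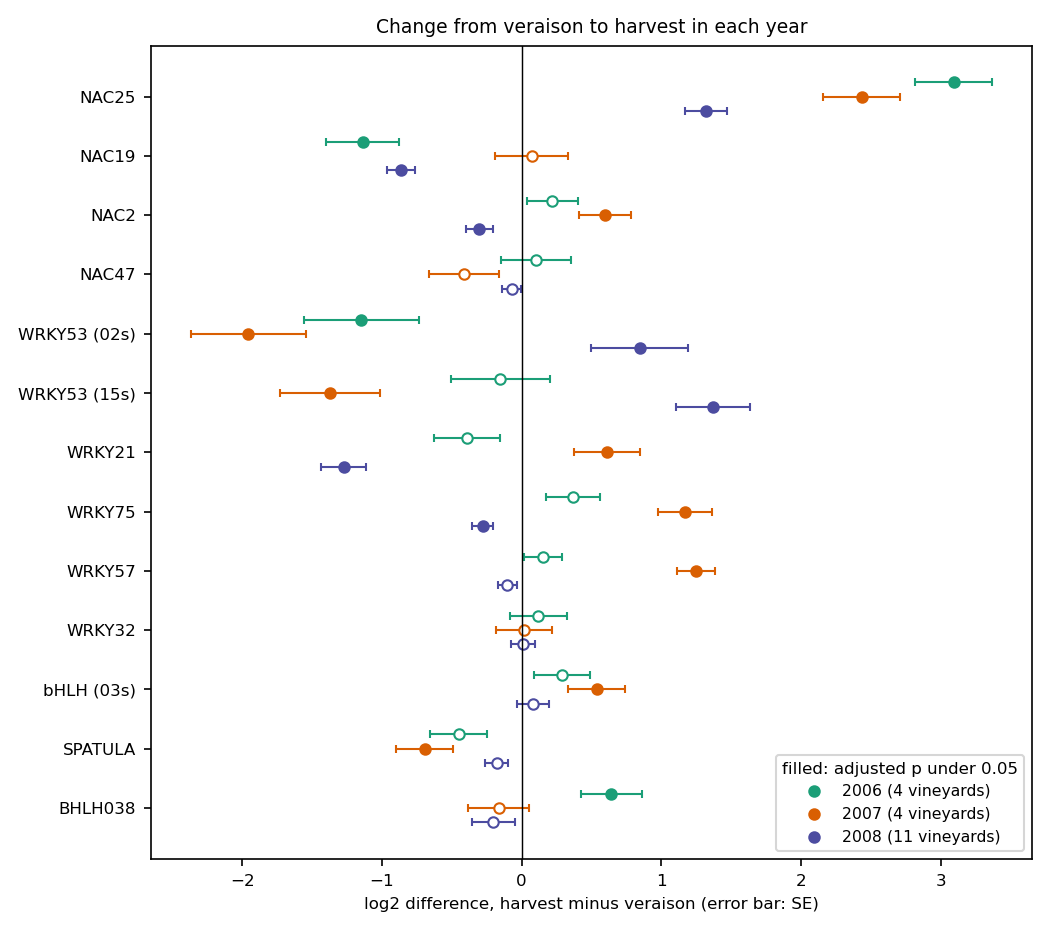
Log2 difference between harvest and veraison (horizontal axis) for the 13 genes (vertical axis) in 2006 and 2007 (4 vineyards) and 2008 (11 vineyards), with the standard error as a bar. Filled points have an adjusted p under 0.05. NAC25 lies at 1.32 or above in all 3 years, and the WRKY53 genes lie on opposite sides of 0 in 2007 and 2008.

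Whether the course itself differed between years was tested as the change from veraison to the mean of both later stages, in 2007 against the mean of 2006 and 2008. The difference in change passed the threshold for 6 of 13 genes, 4 higher and 2 lower in 2007, where 6.75% of all probe sets passed it (3.71% higher and 3.05% lower). WRKY53 (15s) changed by −0.88 in AM, −0.80 in CS, −1.88 in MN and −1.49 in PSP in 2007, and by −0.21 to 0.37 in 2006 and 0.79 to 2.31 in 2008. All 4 vineyards of 2007 were below all of the other years, and the difference was −2.19 (SE 0.38, adjusted p = 0.00117). For WRKY53 (02s) it was −1.82 (SE 0.44, adjusted p = 0.0121), a call lost without MN or PSP.

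In the opposite direction, WRKY21 changed from veraison by 0.61 ± 0.40 in 2007, by −0.35 ± 0.23 in 2006 and by −1.35 ± 0.30 in 2008 (SD, n = 4 vineyards), a difference of 1.46 (SE 0.25, adjusted p = 0.0011). WRKY57 changed by 1.11 ± 0.15 in 2007, 0.17 ± 0.14 in 2006 and −0.05 ± 0.23 in 2008 (1.05, SE 0.14, adjusted p = 0.00013). WRKY75 changed by 1.12 ± 0.60, 0.33 ± 0.33 and −0.29 ± 0.14 in the same order (1.10, SE 0.21, adjusted p = 0.00217). In 2007 all 4 vineyards rose from veraison for each of these genes. NAC19 had a difference of 1.16 (SE 0.28, adjusted p = 0.0124) that was lost without MN, CS or PSP. These tests use the veraison arrays for which 5 of the 6 genes had been listed. WRKY57 was not listed for veraison, but the study's list of changes from veraison could be read only in part. NAC25, with the largest year difference of the NAC genes at each stage, had a difference in change of 0.25 (SE 0.29, adjusted p = 0.676), 2007 lying between 2.52 ± 0.41 in 2006 and 0.27 ± 0.70 in 2008.

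The vineyards of 2008 were compared next, with stage in the fit. Differences between the 11 vineyards passed the threshold for 6 of 13 genes, where 39.3% of all probe sets passed it. These were SPATULA, WRKY32, NAC2, WRKY57, bHLH (03s) and WRKY75. The first 4 had been listed by the study for differences between vineyards, areas or training systems in these berries. The other genes, bHLH (03s) and WRKY75, were not found in the parts of those lists that could be read.

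SPATULA was lowest in CC, at 10.00 over the 3 stages, and highest in PSP, at 10.92, a 1.89-fold range (adjusted p = 0.00354). PM, at 10.11, was next to lowest and FA, at 10.64, next to highest. WRKY32 had the opposite extreme in PSP, at 9.22, below BA at 9.53, and was highest in GIV, at 10.12, a 1.87-fold range (adjusted p = 0.00652, and 0.0507 without PSP). Its residual SD between stages within a vineyard was 0.19, against a range of 0.90 between vineyards.

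NAC2 shared its low vineyards with SPATULA, with 12.10 in CC and 12.18 in PM, and was highest in GIV at 12.75 (adjusted p = 0.0257, lost without CC or GIV). WRKY57 was lowest in BM at 10.06 and MN at 10.22 and highest in FA at 10.65 (adjusted p = 0.0262, lost without BM or FA and with the slide as a random block). For bHLH (03s), PSP at 10.36 was lowest and CC at 11.20 and AM at 11.20 were highest (adjusted p = 0.0365, lost without AM, BM, GIV, PSP or VM). WRKY75 ranged from 12.65 in VM to 13.14 in FA (adjusted p = 0.0392), and this call was lost without FA, GIV, MN, PSP or VM and with the level of the random control probes in the fit. The random probes were highest in PM and VM, at a median 95th percentile of 8.27 and 7.77, and lowest in PSP and CS, at 6.69 and 6.63. Apart from WRKY75, the calls held with that level in the fit. All 6 calls were lost in a Kruskal-Wallis test over the 3 stage means of each vineyard, which called 0 of the 29543 probe sets (4185 of them had an unadjusted p under 0.05).

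**Figure D4:**
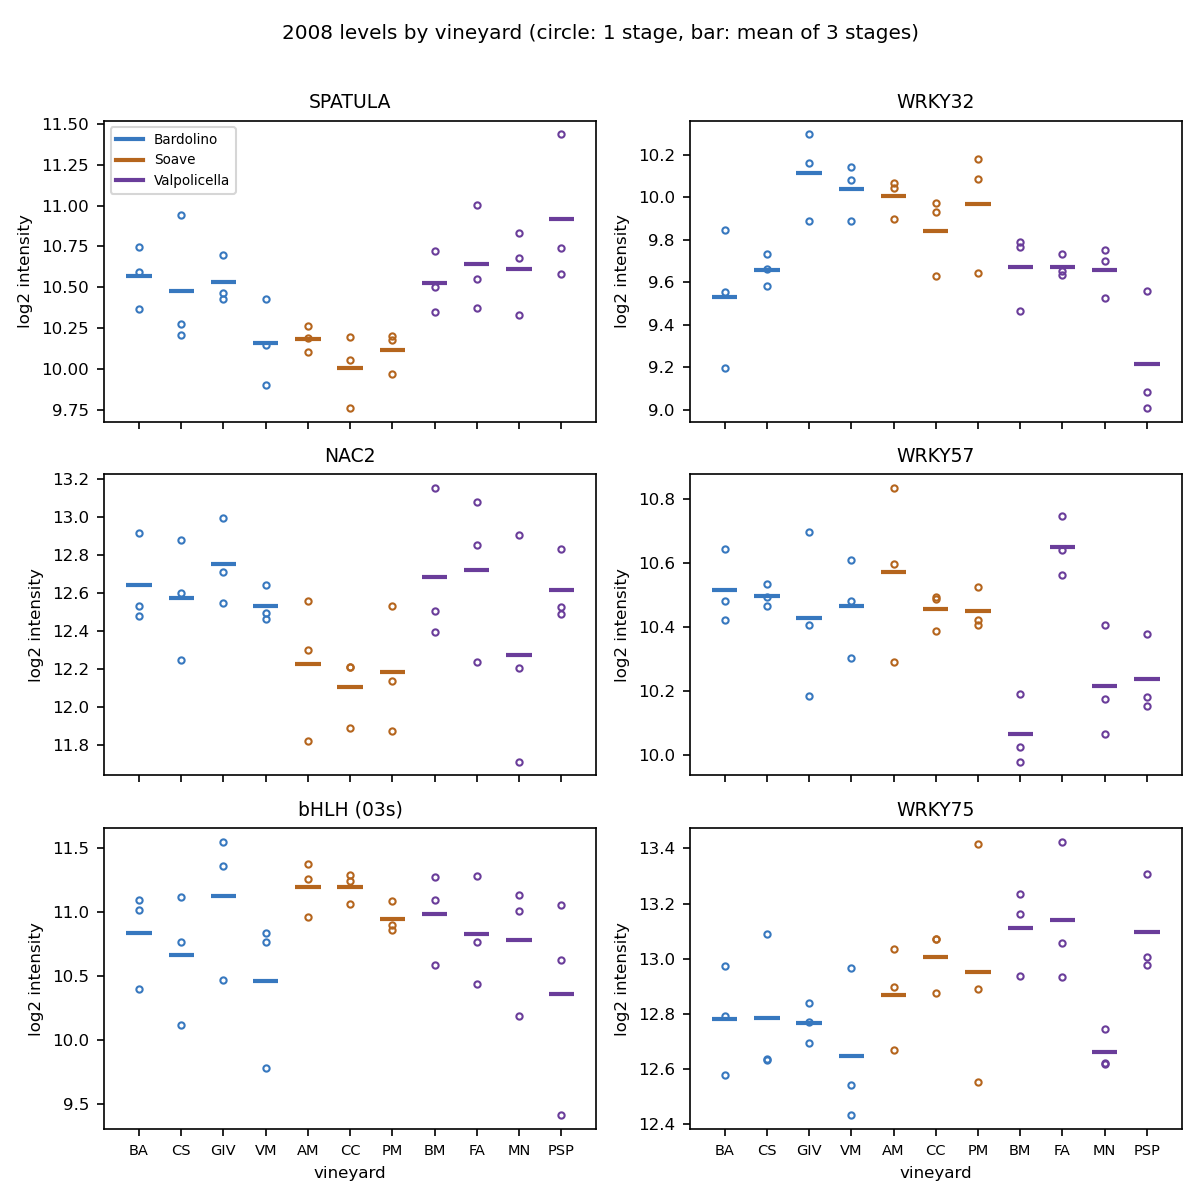
Log2 intensity in 2008 (vertical axis) of the 6 genes past the threshold between vineyards, by vineyard (horizontal axis). A circle is 1 stage, a bar the mean of the 3 stages, and colours mark the areas. NAC2 is lowest in the 3 Soave vineyards AM, CC and PM, and PSP is the highest vineyard for SPATULA and the lowest for WRKY32.

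For the macro-areas, the 11 vineyard means were compared as 4 vineyards of Bardolino, 4 of Valpolicella and 3 of Soave. With limma, 0 of 13 genes and 0 of 29543 probe sets passed the threshold, and 3 of 13 and 2469 of 29543 had an unadjusted p under 0.05. SPATULA was at 10.10 ± 0.09 in Soave, 10.43 ± 0.19 in Bardolino and 10.68 ± 0.17 in Valpolicella (SD over vineyards, adjusted p = 0.484). Soave and Valpolicella did not overlap, the highest Soave vineyard lying at 10.18 and the lowest Valpolicella vineyard at 10.52. NAC2 was at 12.17 ± 0.06 in Soave, below every vineyard of the other areas, against 12.62 ± 0.10 in Bardolino and 12.57 ± 0.20 in Valpolicella (adjusted p = 0.534). WRKY32 was at 9.56 ± 0.23 in Valpolicella, 9.84 ± 0.29 in Bardolino and 9.94 ± 0.08 in Soave (adjusted p = 0.644). These 3 genes had been listed by the study for the areas.

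The WRKY53 genes differed most between vineyards in size without passing the threshold. Over the 3 stages WRKY53 (02s) ranged from 7.98 in PM, where it was above background on 5 of 9 arrays so that no fold is given, to 10.25 in BM (adjusted p = 0.0638), and WRKY53 (15s) from 9.44 in PSP to 11.44 in BM, 4.00-fold (adjusted p = 0.0691). The spread lay at veraison. In BM at veraison the 3 arrays of WRKY53 (02s) read 11.46, 11.58 and 11.86, while the other 10 vineyards lay between 6.72 and 9.87 with a median of 7.65. For WRKY53 (15s) the BM arrays read 11.43, 11.96 and 12.07, and the others lay between 7.90 and 10.47 with a median of 8.87.

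BM was therefore above every other vineyard of 2008 for both genes, 15.8-fold and 7.72-fold above the median of the others. For WRKY53 (02s) some veraison arrays of the other vineyards were not above background, so its fold rests partly on background signal. BM was singled out after its values were seen. In the study's measurements at veraison of 2008, BM had the lowest total anthocyanins and the lowest total acidity of all vineyards. The part of ripening stage in its values was not tested. Of the 13 genes, 3 were above and 3 below all other vineyards in BM at veraison, against 15.0% and 16.7% of all probe sets, and of 54 defence genes (annotated as pathogenesis-related, chitinase, thaumatin, osmotin, stilbene synthase or disease resistance), 16 were above and 9 below. Background on these 3 arrays was 6.07, 6.80 and 7.18. All BM arrays were on 1 slide, which held no veraison berries of another vineyard, so that vineyard and slide cannot be told apart. On that slide, WRKY53 (02s) in BM was at 11.63 at veraison and 10.20 at harvest, and WRKY53 (15s) at 11.82 and 11.37. Without BM, the rise of 2008 from veraison to harvest was 1.07 for WRKY53 (02s) (SE 0.28, adjusted p = 0.00274) and 1.55 for WRKY53 (15s) (SE 0.23, adjusted p = 8.05e-06).

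**Figure D5:**
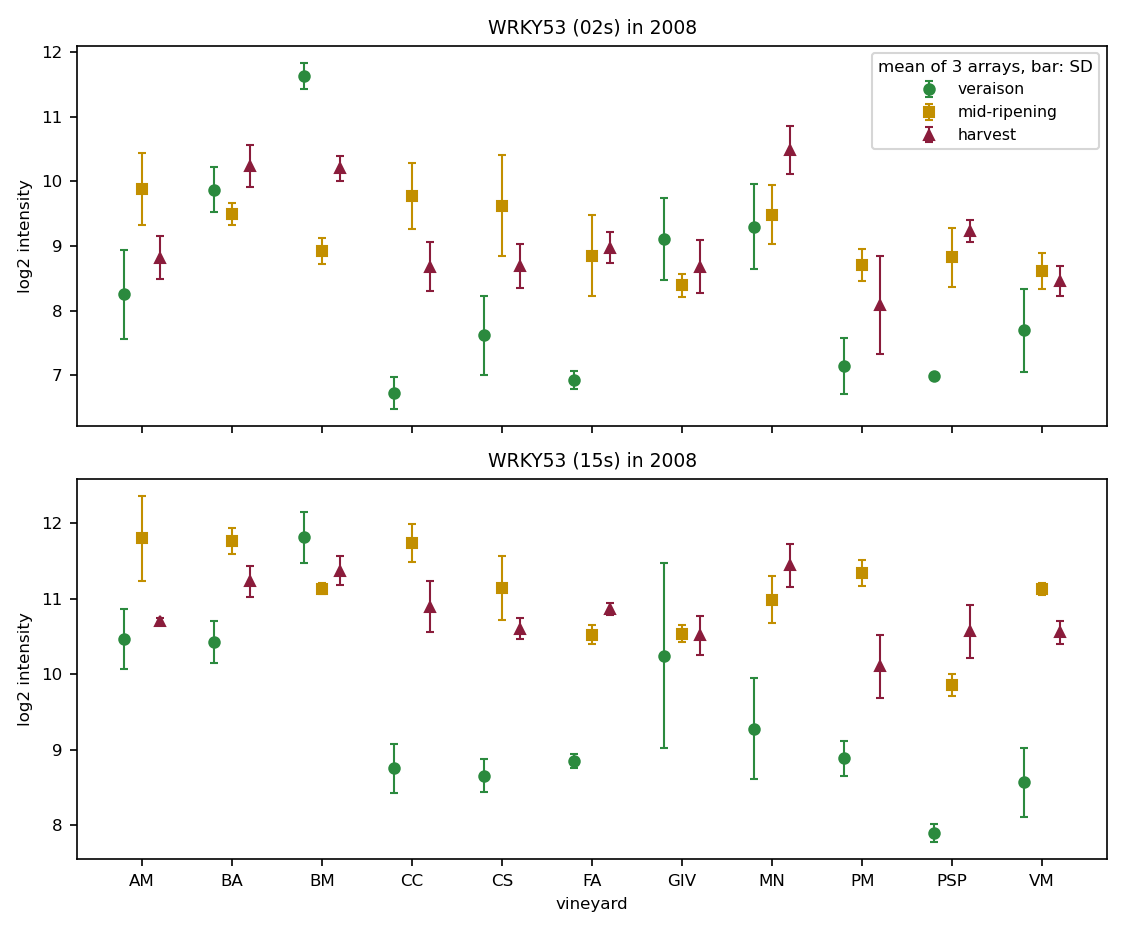
Log2 intensity (vertical axis) of the 2 WRKY53 genes in each vineyard of 2008 (horizontal axis) at 3 stages. A point is the mean of 3 arrays and the bar their SD. BM at veraison, at 11.63 and 11.82, lies above the veraison values of all other vineyards, and in 10 of 11 vineyards WRKY53 (15s) was higher at harvest than at veraison.

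Of the 4 genes of the bHLH network, LHW (VIT_06s0009g00440), named after LONESOME HIGHWAY, an Arabidopsis gene needed for vascular development in the root, fell and rose again within 2008. It went from a median of 13.22 at veraison, in 11 of 11 vineyards and without overlap, to 11.11 at mid-ripening (−2.13, SE 0.17, adjusted p = 1.37e-09) and rose to 12.28 at harvest (1.20, SE 0.17, adjusted p = 5.47e-06). At veraison it was lower in 2006 than in 2008 by −1.97 (SE 0.22, adjusted p = 1.3e-06) and lower in 2007 by −1.24 (SE 0.22, adjusted p = 0.000155), the comparison for which it had been listed. UNE12 (VIT_07s0141g00220), named after a gene of fertilisation in Arabidopsis, rose from veraison to harvest by 0.74 in 2006 (SE 0.14, adjusted p = 0.000192), 0.57 in 2007 (SE 0.14, adjusted p = 0.00273) and 0.24 in 2008 (SE 0.08, adjusted p = 0.0136).

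The last 2 are annotated as ethylene-responsive proteins, and the study had listed both from these same arrays. VIT_11s0016g03560 was listed for year differences at veraison. VIT_13s0019g00540 was listed for its change from veraison in 2006 and 2008. Their differences between years therefore describe the selection and are not independent evidence. VIT_11s0016g03560 was lower at veraison in 2007 than in 2008 by −1.58 (SE 0.18, adjusted p = 5.13e-07) and rose during ripening in 2007 by 0.88 (SE 0.18, adjusted p = 0.000555), while it fell in 2008 by 0.48 (SE 0.08, adjusted p = 3.72e-05). VIT_13s0019g00540 was low, above background on 51 of 171 arrays. In 2008 it rose to harvest in 11 of 11 vineyards, from 5.45 to 6.12 at veraison to 6.36 to 9.78 at harvest (adjusted p = 4.03e-09). At harvest of 2007 it was above background on 0 of 12 arrays, at least 1.90-fold lower than in 2006 and 2008 (adjusted p = 1.47e-05), when 18 of 24 arrays were above it.

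Set beside other transcription factors of the study's lists, recognised by their annotation (transcription factor, zinc finger, bZIP, homeobox, MADS, MYB or heat shock factor, 93 of 111 matched), the genes described here had a median in the same direction at veraison. At veraison 46 of these 93 passed the threshold between 2007 and 2008, 10 higher and 36 lower in 2007, with a median of −0.30, against −0.47 for the 13 genes and 0.09 for all probe sets. Of the 93, 30 had been listed for differences between years at veraison, and these held 26 of the 46 calls, 3 higher and 23 lower, with a median of −1.23. Their calls therefore describe the selection, and what set their direction was not tested. Of 54 matched defence genes, 12 were higher and 12 lower, and of 10 senescence genes 3 were higher and 4 lower. The change from veraison in 2007 differed from the other years for 27 of the 54 defence genes, 19 of them lower in 2007 (median −0.70), and for 23 of the 93 transcription factors, 13 higher and 10 lower (median 0.20). All these genes were listed by the study on these samples, so their shares are not set against the array.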

How the data were processed

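RNA of 171 berry samples was hybridised to NimbleGen 12-plex arrays with 1 dye. The deposited values were linear probe intensities that the authors had quantile normalised over all arrays (per the labels, by RMA). The deposited table names no genes. Neighbouring probes were therefore joined into 29543 sets of mostly 4 by their correlation, and genes were named by correlating the sample values printed with the study's lists with those sets (r of 0.95 or more), or by stage averages. This named 5315 of the 5567 genes in the parts of the lists that could be read. The gene value was log2 of the mean intensity. Triplicate means were fitted with limma 3.58.1 (R 4.3.3): stage and vineyard in 33 means of 2008, and year with stage and vineyard in 36 means of AM, CS, MN and PSP. Vineyards were compared by an F test with stage as a term, and areas over 11 vineyard means. Arrays have no read depth, and their number limits the precision. In simulated data, log2 changes of 1 were recovered in 100% of cases for ripening in 2008 and in 76% for 2007 against 2006 at veraison, and changes of 0.5 in 45% and 5%. The simulation changed 100 of 29543 probe sets for each size of change, with spreads between vineyards and groups set in advance. Far more probe sets were called in the data, so these shares are not the recovery in the real comparisons. Every matched gene of the 3 families was named. The genes and gene lists were chosen with earlier results of these data known. Alternatives were median polish, an offset of 50, quantile normalisation of gene values, a filter on dim genes, leaving out replicates or vineyards, no vineyard term, single arrays with replicate or slide as a block, and, chosen after seeing the data, the random-probe level as a covariate. Replicate letters did not pair samples: deviations of the same letter correlated with a median r of 0.01 over 171 pairs. The training system is not in the labels and was not tested.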

Additional observations from a re-analysis of the deposited data

Results flagged for a closer look

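In 6 of 13 genes the change from veraison in 2007 differed from that in 2006 and 2008 by the test of the difference itself, against 6.75% of all probe sets. All but WRKY57 had been listed for year differences on these veraison arrays. The calls of NAC19 and WRKY53 (02s) were lost without some single vineyards. The differences were 1.16 for NAC19, 1.46 for WRKY21, 1.05 for WRKY57, 1.10 for WRKY75, −1.82 for WRKY53 (02s) and −2.19 for WRKY53 (15s).

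Of 78 groups of 4 vineyards examined for a vineyard far from the other 3, 5 had one, where chance flags about 1 in 20 groups. MN at harvest of 2007 stood above the others for WRKY57, at 10.75 against 10.36 to 10.42, and for NAC19, at 13.88 against 13.32 to 13.38. AM was high for bHLH (03s) at mid-ripening of 2007, at 10.52 against 9.31 to 9.52, and low for NAC2 at harvest of 2006, at 12.10 against 12.72 to 12.79. MN was high for WRKY32 at veraison of 2006, at 9.82 against 9.38 to 9.41.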

How the results depend on the processing

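Counts of the 13 genes past the threshold are given here. From veraison to harvest of 2006 the count was 4, and 2 without AM, 2 without PSP, 8 with single arrays and a replicate block and 10 with the slide as a random block, and 2 to 3 without a replicate. Over all probe sets it was 26.4%, 18.8% without AM, 21.5% without PSP, 48.8% with the replicate block and 56.0% with the slide block. In 2007 the count was 9, and 5 without MN and 7 to 8 without a replicate. Over all probe sets it was 30.0%, and 20.2% without MN. Between 2007 and 2006 at veraison the count was 5, and 2 without CS, 3 without MN, 2 without PSP, 12 with the replicate block, 11 with the slide block and 3 to 6 without a replicate. Over all probe sets it was 16.0%, 3.04% without CS, 17.6% without MN, 7.14% without PSP and 47.0% with the replicate block. For 2007 against the other years the count was 1 at mid-ripening (3 without MN, 7 with the replicate block, 4 with the slide block) and 2 at harvest (1 without AM, 1 without CS, 1 without the vineyard term, 4 with the replicate block, 2 to 3 without a replicate). Over all probe sets it was 9.64% at mid-ripening, 15.8% without MN and 42.0% with the replicate block. At harvest the share was 10.3%, 1.94% without AM, 0.728% without CS, 7.14% without the vineyard term and 41.1% with the replicate block. Between vineyards the count was 6, and 3 without GIV, 3 without PSP, 10 with the replicate block, 0 by Kruskal-Wallis and 3 to 5 without a replicate. Over all probe sets it was 39.3%, 28.1% without GIV and 28.7% without PSP. Between areas the count was 0, and 6 with replicate letters as units and a block. The replicate and slide fits count the 3 arrays of a vineyard as separate units. Counts for ripening in 2008, for 2007 and 2006 against 2008 at veraison and for the change from veraison stayed within 1.5 times under every alternative run. No called difference of a gene changed sign.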
